A study of Mus musculus with 58 samples.

Results

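Expression of 10 acute phase genes was examined in the lung, liver and forestomach of mice given the polycyclic aromatic hydrocarbon indeno(1,2,3-cd)pyrene (IP) by mouth. The genes were Saa1, Saa2, Saa3, Orm1, Orm2, Hp, Hpx, Lcn2, Fgl1 and Itih4, found on the array through the transcript accession of each probe. They were read by 12 of the 55681 probes and made up 10 of the 20018 genes that could be named. The rule that picked them goes by gene name and not by a measured value. 8 of the genes had a single probe, and Fgl1 and Itih4 had 2 each. In those cases the probe with the brighter sample signal stood for the gene.

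All animals were adult male Muta™Mouse of about 13 weeks, which carry a lacZ reporter transgene, vehicle mice included. They were housed singly and gavaged once a day for 28 days with olive oil alone (vehicle) or with IP dissolved in it, in daily amounts of 12.5, 25 or 50 mg for each kg of body weight (mg/kg-bw/day). Tissue was taken 72 h after the last dose, so a response that had already passed by then was not sampled. RNA came from random sections of each tissue and was labelled with Cy5. It was hybridised on 58 two-colour arrays against a common Cy3-labelled reference RNA pooled from 11 mouse cell lines. The lung had 5 mice in each of the 4 groups, and the liver and forestomach had 4 vehicle mice and 5 mice at each dose. Mice were numbered 1 to 20, and a number was taken to mark the same animal in every tissue (vehicle 1 to 5, then 5 numbers per dose in rising order). Vehicle mouse 4 was present for lung only. The treatment protocol speaks of 4 vehicle animals whereas 5 vehicle lungs were labelled, and which of these is right could not be settled.

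Acute phase proteins are plasma and tissue proteins whose production changes within hours to days of infection, injury or inflammation. Most are made by hepatocytes, where interleukin-6 acts through STAT3 and interleukin-1 and tumour necrosis factor act through NF-kB and the C/EBP factors. Serum amyloid A proteins (Saa1, Saa2 and Saa3) are carried on high-density lipoprotein, and Saa3 is the member made mainly outside the liver, for example by macrophages and fat cells. Orm1 and Orm2 encode the alpha-1-acid glycoproteins, which bind drugs and other small ligands. Haptoglobin (Hp) binds free haemoglobin and hemopexin (Hpx) binds haem. Lipocalin 2 (Lcn2) binds bacterial siderophores and is also stored in neutrophil granules. Fgl1 encodes fibrinogen-like protein 1, a secreted hepatocyte protein, and Itih4 encodes a heavy chain of the inter-alpha-trypsin inhibitor family.

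Sequence upstream of the start was found for 7 of the 10 genes in RefSeq promoters of build GRCm38.p6 (Saa1, Saa2, Saa3, Orm2, Hpx, Lcn2 and Itih4). The promoters of Saa1, Saa2, Saa3 and Lcn2 are printed because these genes took part in the relations among mice described further on (Fgl1, which also did, was not matched). They are given 5′ to 3′ on the strand of the gene. Each holds the 250 bases before the start given with the promoter entry, and the capitals mark the match to a C/EBP-type motif. The annotated genes of Saa1 and Saa3 reach farther upstream, to positions 46743181 and 46719615 of chromosome 7. The Saa1 window thus lies partly, and the Saa3 window wholly, within the annotated gene. The windows were chr7:46742981-46743230 on the minus strand for Saa1, chr7:46751583-46751832 on the plus strand for Saa2, chr7:46715677-46715926 on the minus strand for Saa3 and chr2:32387740-32387989 on the minus strand for Lcn2.
Saa1: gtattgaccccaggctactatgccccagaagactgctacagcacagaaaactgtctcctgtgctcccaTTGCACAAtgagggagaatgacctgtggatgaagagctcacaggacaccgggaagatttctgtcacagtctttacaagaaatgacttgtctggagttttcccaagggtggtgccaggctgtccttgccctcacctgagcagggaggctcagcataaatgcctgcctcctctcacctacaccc
Saa2: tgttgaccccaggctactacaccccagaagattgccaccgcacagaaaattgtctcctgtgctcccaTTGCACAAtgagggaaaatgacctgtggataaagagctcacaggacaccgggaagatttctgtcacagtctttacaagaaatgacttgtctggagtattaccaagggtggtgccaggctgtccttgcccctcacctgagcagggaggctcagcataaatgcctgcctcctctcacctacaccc
Saa3: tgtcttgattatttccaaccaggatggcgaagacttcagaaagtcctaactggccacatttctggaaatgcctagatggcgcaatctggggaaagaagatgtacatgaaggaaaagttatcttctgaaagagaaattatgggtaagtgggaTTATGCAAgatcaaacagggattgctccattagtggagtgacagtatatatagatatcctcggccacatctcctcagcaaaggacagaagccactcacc
Lcn2: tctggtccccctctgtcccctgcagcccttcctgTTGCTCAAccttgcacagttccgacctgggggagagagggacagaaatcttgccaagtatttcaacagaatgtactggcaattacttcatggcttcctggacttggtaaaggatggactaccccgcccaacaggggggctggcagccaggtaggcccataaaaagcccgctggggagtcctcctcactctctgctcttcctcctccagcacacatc

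The Saa1 and Saa2 promoters were identical at 238 of 251 aligned positions (94.8%) and carried the same motif letters, TTGCACAA, 182 and 183 bases before the start. The Saa3 promoter matched that of Saa1 at 50.2% of aligned positions and held the motif on its other strand (TTATGCAA as printed, beginning 99 bases before the start). The Lcn2 promoter matched that of Saa1 at 53.9% of positions and held TTGCTCAA. The motif searched was TTGCNNAA on both strands of the 250 bases. It was found in 6 of the 7 members, with TTGCGCAA in Orm2 and TTGCTGAA in Hpx, and in 9.56% of all 32851 promoters. A STAT3-type motif, TTCNNNGAA, was found only in Itih4 among the 7 members (TTCCGAGAA) and in 7.02% of all promoters. An NF-kB-type motif was found in none of the 7 and in 1.41% of all promoters. These matches describe letters in the window, not bound sites. The match was computed for promoters and not for transcripts, and none was computed between Orm1 and Orm2. Whether a probe of Saa1 takes up transcript of Saa2, or one of Orm1 that of Orm2, was not tested. The values of these pairs are therefore not certain to be separate.

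Each value is a log2 ratio of sample to reference RNA, so it compares 1 gene between samples and not the levels of different genes. Of the probes on an array, 53 to 90.7% stood well above background for lung, 37.6 to 78.9% for liver and 43 to 85.9% for forestomach. Some arrays stood apart by this share. In liver these were 5 arrays of dosed mice (9, 13, 15, 16 and 20), at 66.6 to 78.9% against 37.6 to 45% in the other 14, which held every vehicle liver. In lung they were the 4 arrays of the third slide (mice 3, 8, 13 and 18), at 83.8 to 90.7% against 53 to 70.4%, and in forestomach mice 8 and 18, at 81.2 and 85.9% against 43 to 58.9%. Where so stated, results are also given without these arrays, which was not done for every result that includes them. The tissue labels were borne out by their defining markers. All 9 lung epithelial markers measured were above background in every lung array, and their mean log2 ratio was 5.26 to 5.97. All 10 hepatocyte markers were above background in every liver array, at 7.33 to 8.44. Of 10 squamous markers, 9 or 10 were above background in forestomach arrays, at 3.23 to 4.33. Glandular stomach markers, however, split the forestomach arrays into 10 with means of 5.10 to 6.80 and 9 with means of 0.63 to 2.04. Arrays of lung and forestomach shared 5 slides and those of liver lay on 3 others. Each dose had its own position on the slide in lung and forestomach, so dose and position cannot be told apart there, and in liver all but mice 9 and 14 followed the same layout.

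**Figure D1:**
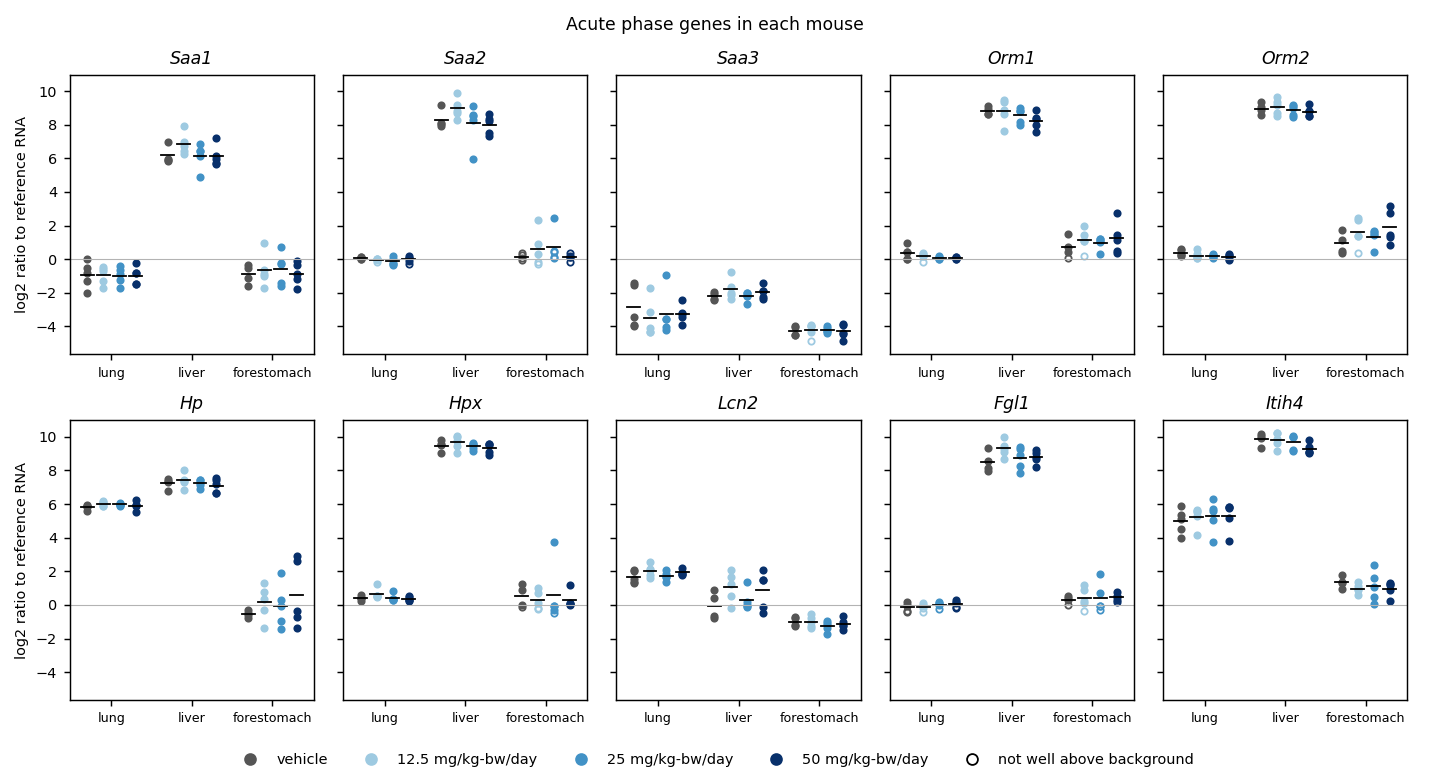
Log2 ratio to the reference RNA (y axis) of the 10 acute phase genes in each mouse, by tissue (x axis) and dose (colour), with a bar at each group mean and open points where the spot was not well above background. The liver stands far above the other tissues for Saa1, Saa2, Orm1, Orm2, Hpx and Fgl1, Hp is high in liver and lung, and Lcn2 has its highest group means in lung.

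In vehicle mice, 8 of the 10 genes were higher in liver than in lung, with folds from 2.68 for Hp to 535 for Hpx. Lcn2 was the reverse, 3.29-fold lower in liver, and Saa3 did not pass the test. Against forestomach, 9 of the 10 were higher in liver. Between the tissues other than liver, 4 of the 10 (Saa3, Hp, Lcn2 and Itih4) were higher in lung than in forestomach and none was lower. Over all probes, liver was above lung for 11.1% and below it for 15.7%, above forestomach for 9.89% and below it for 12.8%, and lung was above forestomach for 10.6% and below it for 8.9%. This balance depended on scaling: with median centring in place of loess, 2373 probes were higher and 15808 lower in liver than in lung, against 6206 and 8739 with loess. Likewise 2723 were higher and 8418 lower in liver than in forestomach (5507 and 7137 with loess), and 9717 higher and 2209 lower in lung than in forestomach (5924 and 4957). A gene was called here when limma's adjusted p over all probes was at most 0.05 and the fold change at least 1.5. In whole tissue, fewer cells of a type and less RNA per cell cannot be told apart.

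The serum amyloid A genes split into a hepatic pair and Saa3. Saa1 read 5.84, 6.96, 5.98 and 5.90 in the 4 vehicle livers (mice 1, 2, 3 and 5). It read -2.04 to -0.02 in the 5 vehicle lungs and -1.61 to -0.37 in the 4 vehicle forestomachs. No liver value came near those of the other tissues, and the fold was 139 over lung (log2 7.12, SE 0.45) and 136 over forestomach (adjusted p = 1.15e-19 and 1.5e-18). Saa2 read 8.09, 9.18, 8.03 and 7.91 in the vehicle livers and -0.02 to 0.12 in lung, a 305-fold difference (log2 8.25, SE 0.41, adjusted p = 9.23e-24). Its spots were not well above background in any of the 4 vehicle forestomachs. The log2 ratio was higher in liver by 8.16 (SE 0.44, adjusted p = 1.66e-22), and by 6.39 to 8.72 over the alternatives. No lower limit of the fold is given, since the limit on the Cy5 signal alone (379-fold) exceeded the 286-fold of the ratio itself. In lung 3 of the 5 vehicle spots were well above background.

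Saa3 ran lower than the reference RNA in all 3 tissues. The vehicle livers read -2.37, -1.98, -2.08 and -2.46, and the vehicle forestomachs -3.97, -4.51, -4.02 and -4.54. The vehicle lungs were uneven, with -3.92, -3.99, -1.40, -1.57 and -3.45 in mice 1, 2, 3, 4 and 5. Mice 3 and 4 thus stood well above the other lungs. Liver was 4.11-fold above forestomach (adjusted p = 0.000701) and lung was 2.63-fold above it (adjusted p = 0.017). The lung call rested on those mice, as it was lost without mouse 3 (adjusted p = 0.109) or mouse 4 (0.0868). The liver-to-lung difference of 0.64 (95% interval -0.30 to 1.58, adjusted p = 0.316) changed sign to -0.44 when arrays were centred on their median in place of loess.

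The alpha-1-acid glycoproteins, hemopexin and Fgl1 were also hepatic. In vehicle livers Orm1 averaged 8.82 ± 0.25, Orm2 8.96 ± 0.32, Hpx 9.48 ± 0.33 and Fgl1 8.50 ± 0.59 (mean ± SD, n = 4). In vehicle lungs the same genes averaged 0.38 ± 0.39, 0.38 ± 0.18, 0.41 ± 0.13 and -0.13 ± 0.26 (n = 5). The folds over lung were 348, 382, 535 and 397, and those over forestomach 280, 260, 502 and 294. In the vehicle lungs the spots were well above background in 3 of 5 mice for Orm1, 4 for Orm2, 5 for Hpx and 3 for Fgl1. The second Fgl1 probe was also higher in liver than in lung (adjusted p = 5.08e-26), but only 1 of the 5 vehicle lungs measured it above background.

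Haptoglobin and Itih4 differed in that lung also read well above the reference. Hp read 5.88, 5.60, 5.88, 5.84 and 5.95 in the vehicle lungs (mice 1 to 5), 7.39, 7.48, 6.80 and 7.34 in the livers and -0.32, -0.51, -0.61 and -0.80 in the forestomachs. The 3 tissues did not overlap. Lung was 83.9-fold above forestomach (log2 6.39, SE 0.51, adjusted p = 3.1e-15) and liver was 225-fold above it. The liver-to-lung step was 2.68-fold (adjusted p = 0.0225). That step lost its call without vehicle mouse 1, 2 or 5 (adjusted p = 0.0691, 0.098 and 0.0621) and with median centring (0.19) or Cy5 signal alone (0.523), while with the mouse as a fixed replicate block its adjusted p was 9.77e-06. Itih4 read 3.97 to 5.90 in vehicle lungs, 9.32 to 10.18 in livers and 0.96 to 1.80 in forestomachs. It was 29.8-fold higher in liver than in lung and 12.4-fold higher in lung than in forestomach (adjusted p = 2.47e-15 and 1.01e-10). Its second probe gave 14.9-fold for the first step and at least 3.08-fold for the second on the Cy5 signal.

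For lipocalin 2 the lung, not the liver, read highest. Vehicle lungs read 1.55, 1.34, 2.08, 2.04 and 1.33, vehicle livers -0.80, 0.42, 0.86 and -0.68, and vehicle forestomachs -0.80, -1.21, -0.72 and -1.26. Every lung was above every liver, and liver and forestomach overlapped. Lung was 3.29-fold above liver (adjusted p = 9.24e-05) and 6.36-fold above forestomach (adjusted p = 2.89e-08). Liver was 1.93-fold above forestomach with an adjusted p of 0.0538. In the paired fits, with the mouse as a replicate block, that comparison passed (adjusted p = 0.00866 as a fixed block and 0.0423 as a random block), as it did without vehicle mouse 1 (0.0259). Neutrophil markers, which Lcn2 accompanies in granulocytes, averaged 1.37 to 2.45 in lung arrays, 0.02 to 0.51 in liver and 0.38 to 1.26 in forestomach, with 8 to 10 of the 10 above background in lung and 3 to 8 in liver. Their part in the Lcn2 level was not tested.

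No acute phase gene passed the test against vehicle at any dose in any tissue. Across all probes the lung test called 0% at 12.5 mg/kg-bw/day, 0.0126% (7 probes) at 25 and 0.079% (44 probes) at 50. Leaving out 1 mouse at a time moved the counts at 25 and 50 to between 0 and 20 and between 20 and 64 probes. The liver and forestomach tests called 0% at each dose. At an unadjusted p under 0.05, the lung gave 1, 1 and 2 of the 10 genes at the 3 doses, where 3.92, 6.54 and 8.81% of all probes passed. The liver gave 1, 0 and 1 genes, where 2.58, 4.42 and 6.84% of all probes passed. The forestomach gave none, where 4.12, 3.59 and 3.89% of all probes passed. The median log2 fold change of the 10 lung values was 0.01, -0.01 and -0.03 at the rising doses. The liver medians were 0.31, -0.03 and -0.15, and the forestomach medians 0.18, 0.19 and 0. The medians over all probes lay between -0.01 and 0.01. With groups of 4 or 5 mice the intervals of single genes were often wide, so a missed threshold does not show that a gene was unaffected.

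**Figure D2:**
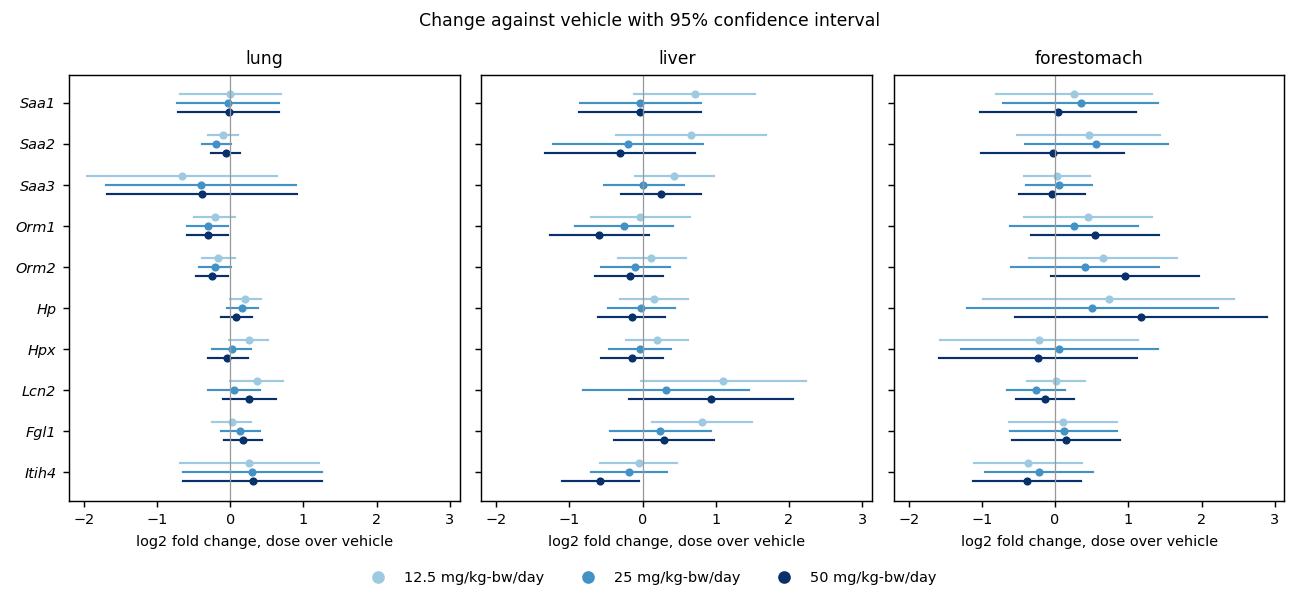
Log2 fold change of each acute phase gene against vehicle (x axis) at the 3 doses of IP (colour) in the 3 tissues, with the 95% confidence interval of the limma fit as a line. Most intervals span 0 and are narrow in lung for Hp, Orm1, Orm2 and Saa2, and they are wide for Saa3 in lung, Lcn2 in liver and Hp in forestomach.

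In lung, the nearest to a dose effect were Orm1 and Orm2. Orm1 read 0.03, 0.98, 0.02, 0.40 and 0.45 in vehicle mice and -0.01, 0.14, 0.10, 0.03 and 0.06 at 50 mg/kg-bw/day. The groups overlapped through vehicle mice 1 and 3. The difference was -0.31 (SE 0.14) at both 25 and 50 mg/kg-bw/day, with unadjusted p = 0.0341 and 0.0316 and adjusted p = 0.711 and 0.501. With slide as a block the adjusted p at 50 was 0.142. The spots were well above background in 3 of 5 vehicle lungs, 2 of 5 at 25 and 2 of 5 at 50, so the value lay near the lowest measurable level. Over the alternatives it ran from -1.46 to -0.16 at 25 and from -0.90 to -0.16 at 50, with -0.16 reached without vehicle mouse 2. Orm2 differed by -0.25 (SE 0.11) at 50 mg/kg-bw/day, with unadjusted p = 0.0297 and adjusted p = 0.489. Vehicle mouse 2 had the highest lung Orm1 and also the highest fat cell marker mean of all lungs (3.77).

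Fat cell markers differed in level between the same groups of lungs. Their mean log2 ratio was 1.13 to 3.77 in vehicle mice and 1.27 to 2.41, 0.49 to 1.83 and 0.86 to 1.99 at the rising doses. Of 10 fat cell genes, 8 were lower at 25 and 7 at 50 mg/kg-bw/day by an unadjusted p under 0.05. Of all lung probes, 6.54 and 8.81% passed that limit at these doses, in either direction. The median of the 10 genes was -1.31 at 50, and none was called. Fabp4 differed by -2.24 and Plin1 by -1.5 at 50 mg/kg-bw/day (adjusted p = 0.161 and 0.135), and both passed when vehicle mouse 1 was left out (0.0206 and 0.00591). Whether adipose tissue in the lung sections set the Orm1 and Orm2 values was not tested.

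None of the other lung members was called. Hp lay between 5.51 and 6.25 in all 20 lungs, and the 95% interval of its difference at 50 mg/kg-bw/day was -0.13 to 0.30. Lcn2 read 1.62, 2.12, 2.53, 1.78 and 2.10 at 12.5 mg/kg-bw/day against 1.33 to 2.08 in vehicle mice, a difference of 0.36 (SE 0.17, unadjusted p = 0.0483, adjusted p = 1). Saa3 differed by -0.66 (95% interval -1.96 to 0.64), -0.40 and -0.38 (SE 0.62 each) at the rising doses. Its spread lay between single mice rather than doses: 5 of the 20 lungs (mice 3, 4, 8, 11 and 16) read -2.43 or higher, at -1.40, -1.57, -1.70, -0.95 and -2.43, and the other 15 read -3.12 or lower. These 5 mice came from all 4 groups. Itih4 differed by 0.31 (SE 0.45), and its lung values followed the slide, with 3.73 to 4.14 on the third slide and 4.52 to 6.29 on the others. The second Itih4 probe read 1.87 to 2.29 on that slide and 1.82 to 2.83 on the others. With slide as a block the difference of the first Itih4 probe at 50 mg/kg-bw/day was 0.31 (SE 0.18, adjusted p = 0.435). The second Itih4 probe, at 25 mg/kg-bw/day, differed by 0.42 (unadjusted p = 0.00869, adjusted p = 0.486).

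In liver, Fgl1 had the lowest p of the members at the lowest dose. It read 7.98, 9.31, 8.56 and 8.16 in vehicle mice and 9.46, 9.99, 8.68, 9.29 and 9.13 at 12.5 mg/kg-bw/day. The groups overlapped through vehicle mouse 2. The difference was 0.81 (SE 0.33, unadjusted p = 0.0229, adjusted p = 1), and the second probe gave 0.98 (unadjusted p = 0.0433). Without the arrays of mice 9, 13, 15, 16 and 20 it was again 0.81 (SE 0.27, adjusted p = 0.912). At 25 and 50 mg/kg-bw/day the Fgl1 differences were 0.24 and 0.29 (SE 0.33 each).

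Saa1, Saa2 and Lcn2 also had their highest group mean at 12.5 mg/kg-bw/day without passing the test, as did Saa3, Orm2, Hp and Hpx. In the livers at this dose 8 of the 10 genes lay above vehicle, and mouse 7 read highest for most of them. Saa1 was 6.76, 7.94, 6.27, 6.97 and 6.45 in those livers, a difference of 0.71 (SE 0.40, 95% interval -0.12 to 1.54). Lcn2 was -0.21, 2.06, 1.67, 0.52 and 1.24 there, a difference of 1.1 (SE 0.54), and -0.48, -0.12, 1.46, 1.48 and 2.09 at 50 mg/kg-bw/day, a difference of 0.94 (SE 0.54, interval -0.19 to 2.06). At both doses the Lcn2 values spanned more than 2 log2 units within the group. The 12.5 mg/kg-bw/day values were not followed by higher ones at the larger doses, where Saa1 differed from vehicle by -0.03 and -0.04.

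At 50 mg/kg-bw/day the lower readings in liver were those of Itih4 and Orm1. Itih4 read 10.18, 9.94, 9.32 and 10.04 in vehicle mice and 9.38, 9.82, 9.11, 9.06 and 9.10 at 50 mg/kg-bw/day, so the groups overlapped. The difference was -0.58 (SE 0.25, unadjusted p = 0.0322, adjusted p = 0.721), and the second probe gave -0.37 (unadjusted p = 0.0782). On the Cy5 signal alone the Itih4 difference was 0.06. Orm1 differed by -0.59 (SE 0.32, adjusted p = 0.741). Without mice 9, 13, 15, 16 and 20, whose arrays stood apart, the differences were -0.54 (SE 0.25, adjusted p = 0.543) for Itih4, -0.28 (SE 0.18, adjusted p = 0.682) for Orm1 and -0.41 (SE 0.18, adjusted p = 0.524) for Hp, which was -0.15 (SE 0.22) with them. Hepatocyte genes on the second liver slide read low, with a marker mean of 7.33 to 7.60 against 7.58 to 8.44 on the others. Itih4 was 9.06 to 9.32 on that slide and 9.10 to 10.23 elsewhere, Hp 6.65 to 6.89 and 7.11 to 8.03, and Hpx 8.92 to 9.15 and 9.35 to 10.08. With slide as a block the Itih4 difference was -0.43 (SE 0.17, adjusted p = 0.756), and without that slide it was -0.62 (adjusted p = 0.612). Of 10 hepatocyte markers, 3 were lower at 50 mg/kg-bw/day by an unadjusted p under 0.05, where 6.84% of all probes passed in either direction. These 3 were Pck1, Cps1 and Tat, enzymes of glucose, urea and tyrosine metabolism, and the median over the list was -0.49. Without the arrays that stood apart Pck1 differed by -0.62 instead of -1.05 and Cps1 by -0.26 instead of -0.65. Their part in the Itih4 value was not tested.

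In forestomach, the largest differences at 50 mg/kg-bw/day were those of Hp and Orm2. Hp read -0.32, -0.51, -0.61 and -0.80 in vehicle mice and 2.90, -0.37, 2.59, -1.36 and -0.72 at 50 mg/kg-bw/day. Mice 16 and 18 stood far above the other 3 and above every vehicle mouse. The difference was 1.17 (SE 0.82, interval -0.55 to 2.89, adjusted p = 1). Orm2 read 1.73, 0.35, 0.51 and 1.14 in vehicle mice and 3.18, 1.46, 2.73, 0.81 and 1.29 at 50 mg/kg-bw/day, with mice 16 and 18 again highest. Its difference was 0.96 (SE 0.48, unadjusted p = 0.0606). The same mice had the highest fat cell marker means of all forestomachs, 4.99 and 4.37, with Adipoq at 6.25 and 5.19, while the other 17 lay between 0.87 and 3.53.

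Mouse 13, at 25 mg/kg-bw/day, had a different set of high genes. Its forestomach read 3.76 for Hpx, against -0.49 to 1.25 in the other 18, 2.44 for Saa2, 2.39 for Itih4, 1.92 for Hp and 1.83 for Fgl1. Its hepatocyte marker mean of 2.08 was the highest of the forestomachs, where the others lay between 0.10 and 1.31, with Alb at 4.28 and F2 at 2.68. Mouse 10, at 12.5 mg/kg-bw/day, read 2.32 for Saa2, 0.95 for Saa1 and 2.45 for Orm2, with a fat cell mean of 3.08. Mouse 14, at 25 mg/kg-bw/day, had a higher fat cell mean of 3.53, with Adipoq at 4.12, without such high members. No forestomach on its slide read above 0.18 for Saa2, -0.32 for Saa1, 1.51 for Orm2 or 0.27 for Hp. Without the arrays of mice 8 and 18, which stood apart, the differences at 50 mg/kg-bw/day were 0.67 (SE 0.79) for Hp and 0.75 (SE 0.49) for Orm2. Some members also differed in range between the 9 forestomachs with low glandular markers and the 10 with high ones. Orm1 was 1.05 to 2.73 in the former and 0.08 to 1.96 in the latter, Orm2 1.36 to 3.18 and 0.35 to 2.73, and Fgl1 -0.34 to 0.31 and 0.29 to 1.83. The 9 glandular markers themselves had a median log2 difference from vehicle of -1.7, -1.47 and -0.75 at the rising doses, and none was called. Glandular content may thus have differed between the dose groups. The part of admixed tissue, glandular or other, in the values of the members was not tested.

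**Figure D3:**
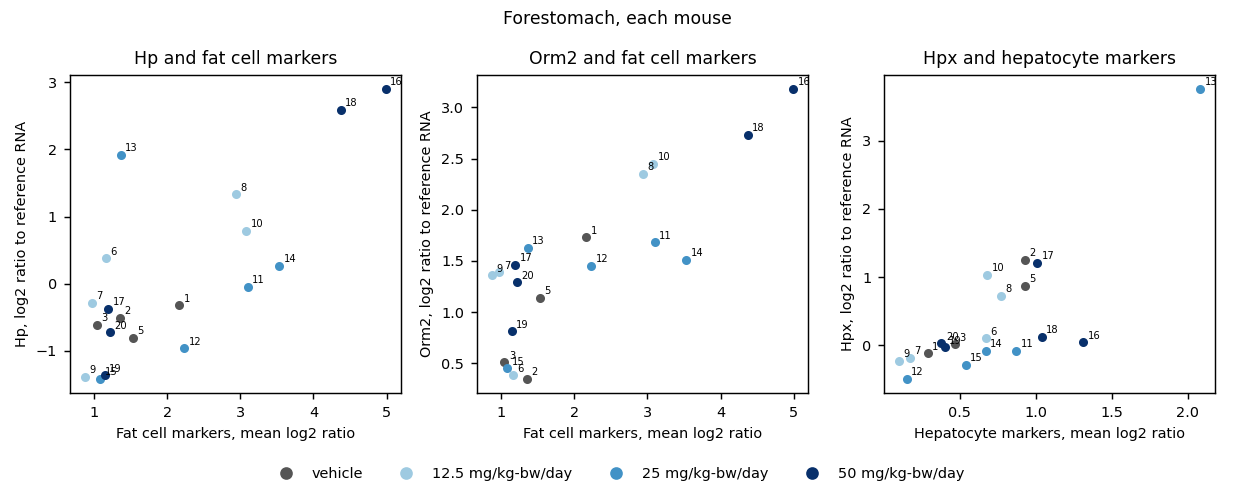
Log2 ratio of Hp, Orm2 and Hpx in the forestomach of each mouse (y axes) against the mean log2 ratio of fat cell or hepatocyte markers (x axes), coloured by dose and labelled by mouse number. Mice 16 and 18 are highest in fat cell markers, Hp and Orm2, and mouse 13 is highest in hepatocyte markers and Hpx.

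The effect of 50 mg/kg-bw/day was also compared between tissues. The difference of effects passed the test for none of the 10 genes, and for 0.0162% of all probes between lung and liver, 0.0144% between lung and forestomach and 0.00359% between liver and forestomach. The member that came nearest was Orm2 between lung and forestomach, at -1.21 (SE 0.45, adjusted p = 1). Orm1 and Orm2 each differed by -1.14 between liver and forestomach (adjusted p = 0.768), and Lcn2 by 1.08 (adjusted p = 0.802). The forestomach values in these differences include mice 16 and 18.

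Single mice held the highest or lowest liver values of several acute phase genes at once. The spread among mice was not tested against dose. Mouse 7, at 12.5 mg/kg-bw/day, had the highest liver value of 8 of the 10 genes, with Saa1 at 7.94, Saa2 at 9.90, Saa3 at -0.75, Orm1 at 9.48, Orm2 at 9.65, Hpx at 10.08, Fgl1 at 9.99 and Itih4 at 10.23. Its Lcn2 of 2.06 was just under the highest, 2.09 in mouse 20. Mouse 15, at 25 mg/kg-bw/day, had the lowest Saa1, Saa2 and Saa3, at 4.87, 5.96 and -2.67. Mouse 20, at 50 mg/kg-bw/day, combined high Saa1 (7.21), Saa3 (-1.41) and Lcn2 (2.09) with the lowest Orm1 of any liver (7.54). The liver arrays of mice 15 and 20 were among the 5 that stood apart. They had 73.3 and 75.2% of probes well above background, against 41.3% for mouse 7.

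**Figure D4:**
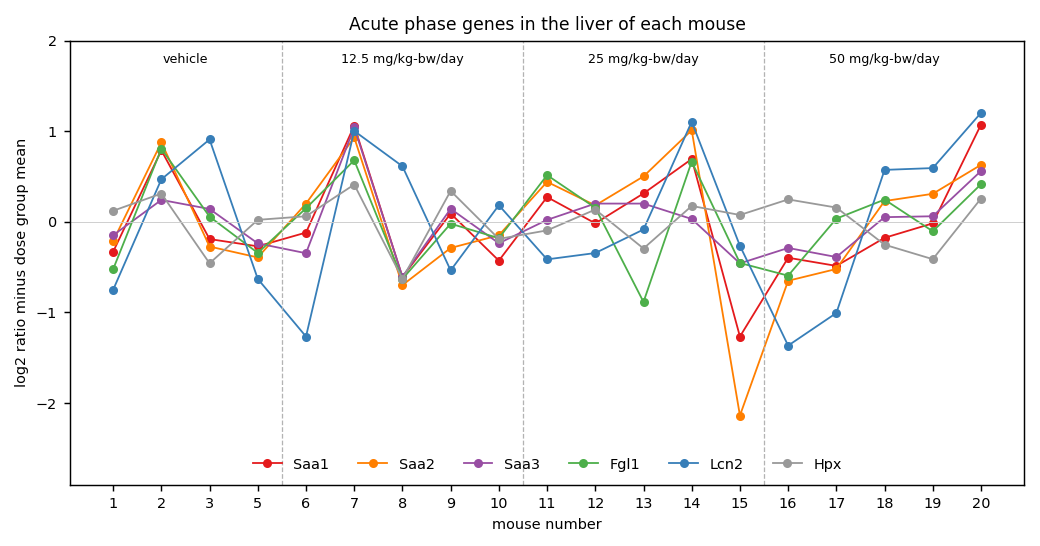
Liver log2 ratio minus the mean of the dose group (y axis) for Saa1, Saa2, Saa3, Fgl1, Lcn2 and Hpx in each of 19 mice (x axis, ordered by dose). Saa1, Saa2 and Saa3 move together, above the group mean in mouse 7 and below it in mouse 15, and Hpx varies less than they do.

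These joint movements were measured on values minus the mean of the dose group, with mice permuted within dose groups. In all, 57 relations were tested, and Benjamini-Hochberg adjusted p-values passed 0.05 in 5 of them by Pearson's r and in 5 by Spearman's rho. Within liver, over 19 mice, Saa1 moved with Saa2 (r = 0.90, rho = 0.90, permutation p = 1e-05 and adjusted p = 0.00057 for r, 3e-05 and 0.00171 for rho). The smallest p that 100000 permutations can give is 1e-05. Saa1 also moved with Saa3 (r = 0.84, permutation p = 7e-05, adjusted p = 0.00199, and rho = 0.85, p = 1e-04, adjusted 0.00285) and with Fgl1 (r = 0.68, permutation p = 0.00361, adjusted p = 0.0412, and rho = 0.67, p = 0.0038, adjusted 0.0472). Without mice 7 and 20, the farthest from the median of Saa1, r was 0.93 for Saa2, 0.76 for Saa3 and 0.61 for Fgl1. With slide means also removed, r was 0.92, 0.84 and 0.67. Over the 14 mice left without the arrays that stood apart r was 0.95, 0.82 and 0.89, and Saa3 then no longer passed (adjusted permutation p = 0.00855, 0.1 and 0.0162). Whether the Saa1 and Saa2 probes share signal was not tested.

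The remaining hepatic members were not shown to follow Saa1. Lcn2 had r = 0.52 (permutation p = 0.031, adjusted p = 0.161) and rho = 0.46 (p = 0.0722, adjusted 0.374), and r was 0.32 without mice 7 and 20 and 0.72 with slide means removed (adjusted permutation p = 0.0126). For Hpx, Orm2, Itih4, Hp and Orm1 r was 0.40, 0.38, 0.28, 0.22 and 0.18, with adjusted permutation p from 0.387 to 0.823. On the Cy5 signal alone these 5 rose to between 0.65 and 0.82, and all then passed, so how far they move with Saa1 depends on the reference channel and the scaling.

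In lung, Saa3 moved with Lcn2 over 20 mice (r = 0.76, permutation p = 0.00233, adjusted p = 0.0332, and rho = 0.60, p = 0.0212, adjusted 0.151). Over the 16 lungs left without the third slide r was 0.63 (adjusted permutation p = 0.287), so the relation no longer passed. Without mice 8 and 11 r was 0.66, and with dose groups not centred it was 0.55 (adjusted permutation p = 0.0995). Saa3 and Saa1 in lung had r = 0.46 (adjusted permutation p = 0.264), which became 0.88 once slide means were removed (adjusted p = 0.00057). Saa3 and Itih4 likewise went from r = 0.03 to 0.93, and to 0.83 over the 16 lungs left without the third slide (adjusted permutation p = 0.0122). Lung Saa1 itself followed the slide, from a mean of -1.47 on the first and second slides to -0.30 on the fifth, and forestomach Saa1 did so on the same slides, from -1.68 to 0.06. None of the 9 relations of Saa3 in forestomach passed.

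Across tissues of the same mouse, Lcn2 was the member that moved together. Its lung and forestomach values had r = 0.73 (permutation p = 0.00131, adjusted p = 0.0249) and rho = 0.83 (p = 0.00022, adjusted 0.00418) over 19 mice. Without mice 3 and 8 r was 0.87, over the 15 mice left without the arrays that stood apart 0.91 (adjusted permutation p = 0.00855), with slide means removed 0.77 (adjusted permutation p = 0.0104), and with dose groups not centred 0.60 (adjusted p = 0.067). Lung and liver Lcn2 had r = 0.54 and rho = 0.62 (adjusted permutation p = 0.153 and 0.0685), and liver and forestomach Lcn2 had r = 0.48 (adjusted p = 0.262). Without the arrays that stood apart, lung and liver Lcn2 had r = 0.31 and rho = 0.25 over 11 mice (adjusted permutation p = 0.876 and 0.923). Liver and forestomach Lcn2 then had r = 0.34 over 12 mice (adjusted permutation p = 0.869). Hpx in lung and forestomach passed by rho alone (0.55, adjusted permutation p = 0.0472), with r = 0.59 (adjusted permutation p = 0.156). With slide means removed its r was 0.29, and without mice 8 and 13 it was 0.36. Over the 15 mice left without the arrays that stood apart its rho was 0.32 (adjusted permutation p = 0.775) and its r 0.43. Saa1 in lung and forestomach, which share slides, had r = 0.60 (adjusted permutation p = 0.107), which turned to -0.34 once slide means were removed and was 0.78 over the 15 mice left without the arrays that stood apart (adjusted permutation p = 0.0282). Saa1, Saa2 and Saa3 in liver had r of -0.03, -0.32 and -0.03 with the same genes in lung.

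**Figure D5:**
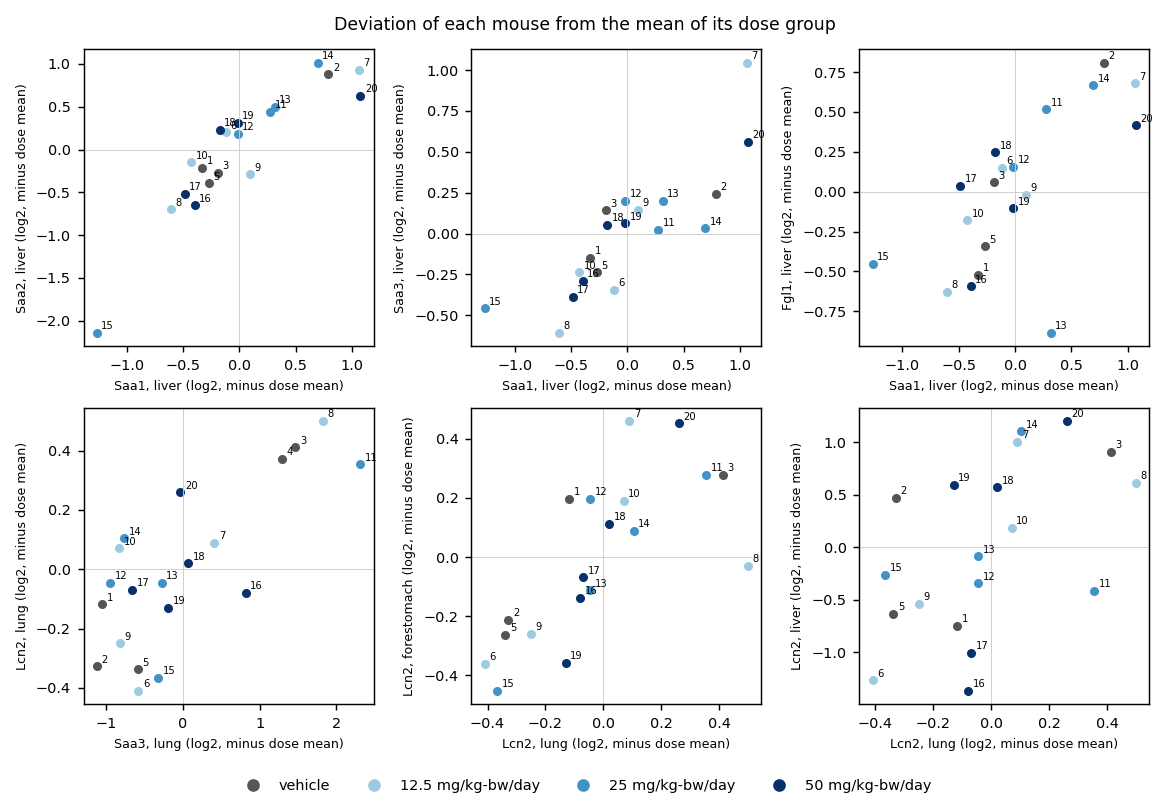
Deviation of each mouse from the mean of its dose group (log2, both axes) for 6 pairs: liver Saa1 with Saa2, Saa3 and Fgl1, lung Saa3 with Lcn2, and lung Lcn2 with Lcn2 in forestomach and in liver. Points are mice, labelled by number and coloured by dose, and r is 0.90, 0.84, 0.68, 0.76, 0.73 and 0.54 in that order.

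Genes beyond the 10 were described by lists of related function. Of 20 other positive acute phase genes, such as the fibrinogen chains and ceruloplasmin, none was called in any tissue or dose. At 50 mg/kg-bw/day 1 was lower in lung by an unadjusted p under 0.05, 1 was higher and 2 lower in liver, and none in forestomach, with medians of -0.06, -0.22 and 0. Serpina3m, a serine protease inhibitor, differed by -0.70 in lung and -0.81 in liver (adjusted p = 0.505 and 0.718). Pzp, a broad protease inhibitor of plasma, differed by -0.90 in liver (adjusted p = 0.719). The copper carrier Cp differed by 0.37 there (adjusted p = 0.721). Of 10 negative acute phase genes, such as Alb and Ttr, none passed even the unadjusted limit at any dose, and their liver median at 50 mg/kg-bw/day was -0.39.

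Among 34 cytokines, receptors and signalling genes that govern the acute phase response, none was called. At 50 mg/kg-bw/day 3 were higher and 6 lower in lung by the unadjusted limit, 3 higher and 2 lower in liver, and none in forestomach. Of all probes, 8.81, 6.84 and 3.89% passed that limit in these tissues. The lowest p was that of Cebpb in lung, which encodes the factor C/EBP beta. It read 0.71, 0.79, 1.00, 0.90 and 0.79 in vehicle mice and 0.50, 0.30, 0.33, 0.33 and 0.22 at 50 mg/kg-bw/day. Every vehicle lung was above every 50 mg/kg-bw/day lung. The difference was -0.50 (SE 0.09, adjusted p = 0.0251) and at 25 mg/kg-bw/day -0.56 (adjusted p = 0.039), 1.42- and 1.47-fold and so under the fold threshold of 1.5. Over the alternatives the adjusted p ran from 0.00455 to 0.97 at 50 and from 0.00879 to 0.981 at 25 mg/kg-bw/day, with the largest values under median centring. Without the lung arrays of the third slide it was 0.12 at 50 and 0.145 at 25 mg/kg-bw/day. At the middle dose both thresholds were passed without vehicle mouse 1 (-0.59, adjusted p = 0.0321) or mouse 11 (-0.63, adjusted p = 0.0238).

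3 further signalling genes were near in lung at 50 mg/kg-bw/day. Il1b, which encodes interleukin-1 beta, read 1.48 to 1.82 in vehicle mice and 2.06 to 2.97 at 50 mg/kg-bw/day, with no overlap. Its difference was 0.74 (SE 0.22, 1.67-fold, adjusted p = 0.2), and with slide as a block it passed (adjusted p = 0.0281). Socs1, an inhibitor of cytokine signalling, differed by 0.46 (adjusted p = 0.0943), and the NF-kB inhibitor Nfkbia by -0.39 (adjusted p = 0.186). In liver, Hnf4a, a regulator of hepatocyte genes, differed by -0.50, and the cytokine genes Il11, Il1a and Il1b by -0.59, 0.24 and 0.39 (adjusted p = 0.719 to 0.725). These cytokine genes lay near the lowest measurable level. Of the 4 vehicle livers, 2, 0 and 1 had spots of Il11, Il1a and Il1b well above background. At 50 mg/kg-bw/day 3, 3 and 5 of the 5 livers had them. With median centring Hnf4a, Il11 and Il1a changed sign to 0.06, 0.17 and -0.14.

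Of 14 binding partners and clearance receptors, none was called. At 50 mg/kg-bw/day 2 were higher and 1 lower in lung by the unadjusted limit, 1 higher in liver and 1 higher in forestomach. In lung these were Scarb1 (0.36), a lipoprotein receptor, P2rx7 (0.33), an ATP-gated channel, and Asgr2 (-0.57), a subunit of the receptor for desialylated glycoproteins. Their adjusted p were 0.216, 0.171 and 0.166. Lrp1, which takes up haem bound to hemopexin, differed by 0.37 in liver (adjusted p = 0.718). Cd36, a fatty acid and lipoprotein receptor, differed by 0.60 in forestomach (adjusted p = 1), where mice 16 and 18 carried the fat cell markers given above.

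Neutrophil, macrophage and other marker lists gave no call either. In lung 1 of 10 neutrophil genes was higher at 50 mg/kg-bw/day by the unadjusted limit, S100a8 by 0.68 (adjusted p = 0.369), and in liver S100a9 by 1.02 (adjusted p = 0.725). No macrophage gene passed that limit at 50 mg/kg-bw/day in any tissue.

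The genes most like the serum amyloid A members were taken as those with the highest r on values minus the dose group mean. With liver Saa1, over 19 arrays and 12017 genes, they were Dclre1a (0.76), Fam133b (0.71), Abhd14b (0.70), Zfp395 (0.70) and Dnajb1 (0.69). All 5 were below the r of Saa2 and Saa3 but above that of Fgl1 (0.68). With lung Saa3, over 20 arrays and 15307 genes, they were Gm17019 (0.86), Nars (0.85), Wfikkn2 (0.84), Ccs (0.83) and Sdhd (0.82). All 5 were above the r of Lcn2 (0.76). With forestomach Saa3, over 19 arrays and 13726 genes, they were Srgn (0.80), Gatad1 (0.79), Ctss (0.78), Rap1b (0.77) and Smim8 (0.75). The arrays of a tissue share slides, and these correlations are descriptions picked as the highest of many.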

How the data were processed

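RNA of 58 tissue samples was measured on two-colour Agilent arrays, 1 array per sample. Per the file headers, the deposited scanner tables hold spot intensities (median signals of each channel) and the log10 ratio from Feature Extraction 10.7.3.1 (lung, forestomach) or 11.0.1.1 (liver). The authors' deposited log2 value table was used for lung and forestomach as an alternative. Its 19 liver columns were left out because their probe names were displaced.

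The median intensities were not background-subtracted and were loess-normalized within each array. Outlier spots were left out and spots of a probe averaged. Groups came from the labels. Each tissue was fitted with limma 3.58.1 in R 4.3.3 (4 groups, statmod 1.5.0 for random blocks), and tissues were compared in 1 fit of 12 groups, with p-values adjusted by Benjamini-Hochberg over all 55681 probes. Relations among mice used 100000 permutations, two-sided. The code was tested on simulated data. The number of arrays and the signal over background limit precision, and nothing is known of shared litters. Tissues of 1 mouse were paired by number. Same-mouse correlations of deviations over 19 mice ran from -0.05 to 0.17 for lung and liver (median 0.04). For lung and forestomach, which shared slides, they ran from 0 to 0.30 (median 0.15). For liver and forestomach they ran from -0.07 to 0.11 (median 0.02). Such low values do little to show that a number marks the same animal. Named beside the members were list genes at an unadjusted p under 0.05 at 50 mg/kg-bw/day, up to 4 per list and tissue, and the 5 genes most like Saa1 or Saa3. Members and lists were chosen with earlier results of these data known. Scgb3a2, Muc6 and Cd68 had no named probe. The genome build of the array design (mm9) differs from that of the RefSeq promoters, so probe positions are not given.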

Additional observations from a re-analysis of the deposited data

Results flagged for a closer look

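Within groups of 4 or 5 mice, 14 of 120 groups held a mouse far from the rest by Dixon's criterion, which chance alone marks in about 5% of groups. In liver, vehicle mouse 2 was high for Saa1 (6.96, others 5.84 to 5.98) and Saa2 (9.18, others 7.91 to 8.09). At 25 mg/kg-bw/day mouse 15 was low for Saa2 (5.96, others 8.28 to 9.11) and Saa3 (-2.67, others -2.19 to -2.01), and mouse 14 was high for Lcn2 (1.38, others -0.14 to 0.19). The liver array of mouse 15 was among those that stood apart. In lung, mouse 11 was high for Saa3 (-0.95, others -4.21 to -3.54), mouse 8 for Hpx (1.25, others 0.49 to 0.54) and mouse 13 for Hpx (0.83, others 0.30 to 0.38). The lungs of mice 8 and 13 lay on the third slide, where Hpx read 0.41 to 1.25 against 0.22 to 0.59 on the others. Mouse 8 was also low for lung Itih4 (4.14, others 5.29 to 5.63), for which all 4 lungs of that slide read low.

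In forestomach at 25 mg/kg-bw/day, mouse 13 was high for Saa2 (2.44, others 0.09 to 0.48) and Hpx (3.76, others -0.49 to -0.08), with the hepatocyte markers given above. Mouse 15 was low for Orm1 (0.28, others 1.00 to 1.2) and Orm2 (0.45, others 1.45 to 1.68). At 50 mg/kg-bw/day mouse 17 was high for Hpx (1.21, others -0.03 to 0.12).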

How the results depend on the processing

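Of 421 recomputed counts of members called, 413 stayed within 1.5 times the reported count. With looser limits (unadjusted p under 0.05, 1.2-fold), 1 member was called in lung at each of the 3 doses and 1 in liver at 12.5 and at 50, against 0 reported. The same limits called 594, 1294 and 1980 of 55681 probes in lung at the rising doses and 815 and 2848 in liver at 12.5 and 50. With the scanner software's ratio 1 of the 10 members (Orm2) was lower in lung than in forestomach, where 6117 of 55681 probes were lower. The relations among mice that passed rose from 5 to 10 with slide means removed and to 15 on Cy5 signal alone. Reversed values were, with Cy5 signal alone, Itih4 (0.06) and Hnf4a (0.27) in liver at 50 mg/kg-bw/day. With the scanner ratio they were Orm1 in forestomach (-0.10) and S100a9 in liver (0.00). With median centring they were Saa3 in liver against lung (-0.44) and, in liver at 50, Il1a (-0.14), Tat (0.02), Il11 (0.17), Hnf4a (0.06) and Car3 (0.11). Without forestomach mice 10, 13, 16 and 18 Orm1 (-0.01) and Hp (-0.26) reversed, but these mice were picked after their values were seen, and 16 and 18 carry the Hp difference, so leaving them out had to shrink it. The alternative without the arrays that stood apart, also chosen after seeing the data, gave 5 relations among mice, 3 of them among the 5 reported. Causes were not tested.

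The paired fits, with the mouse as a replicate block, left each count of members called between tissues at its reported value or within 1.5 times of it, apart from Lcn2 between liver and forestomach, given above. Leaving out 1 mouse changed no count of members called against vehicle from 0. Over all probes the lung count at 50 mg/kg-bw/day was 44, and it was 5 with median centring, 3 with the scanner ratio, 11 on Cy5 alone, 15 when fitted with vehicle alone, 26 without the third slide and 156 with slide as a block. At 25 mg/kg-bw/day it was 7, and 59 with slide as a block, 1 with the scanner ratio or the authors' table and 0 with median centring, Cy5 alone or without the third slide. Mouse number and weak signal limit what could be detected.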
